A study of Mus musculus with 8 samples.

Results

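The 10 genes described here encode chains of the receptors for interleukins that act on CD8+ T cells: *Il2ra*, *Il2rb*, *Il2rg*, *Il7r*, *Il4ra*, *Il21r*, *Il6ra*, *Il12rb1*, *Il12rb2* and *Il18r1*. They were taken by symbol from the 48321 gene symbols of the count tables, and all 10 were found in all 8 libraries and passed the filter on low counts. Their RNA was measured by sequencing in CD8+ T cells from the spleen of C57BL/6 mice. The series describes *Satb1* F/F; *E8I-cre* mice, in which *loxP* sites flank part of *Satb1* and the recombinase comes from a transgene active in peripheral cells of the CD8 lineage. Each library was labelled WT or KO and day 0 or day 5, with 2 libraries in each of the 4 groups, and the cells of day 5 had been cultured in vitro. The labels do not say whether the WT mice carried floxed alleles or the transgene, how old the mice were, what the culture contained, or whether libraries 1 and 2 of a group came from different mice. P-values therefore measure the spread between libraries, which may be technical.

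Total counts per library ranged from 4170126 to 11117971, and a count of 3, taken as the smallest amount a library can show, corresponded to 0.257 to 0.723 CPM (a count scaled to a common library size, with library sizes adjusted by the trimmed mean of M-values). *Satb1* itself read 97.8 and 91.6 CPM in WT and 144 and 125 CPM in KO at day 0, so at day 0 both libraries labelled KO lay above both labelled WT (log2 fold change 0.51, adjusted p = 0.125 by edgeR's quasi-likelihood test). At day 5 it read 96.5 and 116 CPM in WT and 56.5 and 62.3 CPM in KO, a fall of 1.79-fold (adjusted p = 0.0162, edgeR). This call was lost without WT replicate 2, KO replicate 1 or KO replicate 2 of day 5 (adjusted p = 0.0848, 0.174 and 0.156, edgeR). The day 0 values go against the label, and the counts cover the whole gene, including exons outside a floxed part. KO below is therefore short for the libraries labelled KO. The summed level of 5 CD8 T-cell markers was between 6160 and 10683 CPM in each library, and *Cd4*, *Lyz2* and *Ncr1*, which mark other blood cells, had at most 15 counts in any library. Other genes on the same marker lists were not near 0, among them *Cst3* with up to 1167 counts, *Cd79b* with up to 1648, *Trdc* with up to 943 and *Foxp3* with up to 510.

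Interleukin receptors are assembled from chains that are shared in different combinations. IL-2Rγ, the common gamma chain encoded by *Il2rg*, pairs with the chains encoded by *Il7r*, *Il4ra* and *Il21r* to form the receptors for IL-7, IL-4 and IL-21, and with IL-2Rβ to form a receptor for IL-2 and IL-15, to which IL-2Rα (CD25) adds high affinity for IL-2. The chains lack kinase activity of their own and signal through JAK kinases and STAT factors, except the IL-18 receptor, which signals through MyD88 and IRAK kinases. Resting T cells depend on IL-7 for survival, whereas activated CD8+ T cells become responsive to IL-2, IL-12 and IL-18.

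The 250 bases before the transcription start are shown for 4 genes that stand for the patterns described below, *Il2ra* and *Il12rb2* for the genes that were far higher at day 5, *Il6ra* for those that were far lower, and *Il21r* for those that the libraries labelled KO carried at a higher level after culture. The sequences are from RefSeq (GRCm38.p6), which held a promoter for 8 of the 10 genes, and are printed 5′ to 3′ on the strand of the gene. They lie at chr2:11642542-11642791 (plus strand) for *Il2ra*, chr6:67376189-67376438 (minus strand) for *Il12rb2*, chr3:89913197-89913446 (minus strand) for *Il6ra* and chr7:125603179-125603428 (plus strand) for *Il21r*. Capitals mark matches on either strand to a STAT motif (TTCNNNGAA), an AP-1 motif (TGANTCA), a FOXO motif (GTAAACA) or a kappaB-type motif (GGGA and CCC with any 3 bases between them).
Il2ra: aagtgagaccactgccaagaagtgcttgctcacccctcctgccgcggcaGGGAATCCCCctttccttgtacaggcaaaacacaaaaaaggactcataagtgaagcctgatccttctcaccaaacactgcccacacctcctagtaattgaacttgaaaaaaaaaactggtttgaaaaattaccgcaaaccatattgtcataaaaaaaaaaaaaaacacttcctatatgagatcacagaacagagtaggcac
Il12rb2: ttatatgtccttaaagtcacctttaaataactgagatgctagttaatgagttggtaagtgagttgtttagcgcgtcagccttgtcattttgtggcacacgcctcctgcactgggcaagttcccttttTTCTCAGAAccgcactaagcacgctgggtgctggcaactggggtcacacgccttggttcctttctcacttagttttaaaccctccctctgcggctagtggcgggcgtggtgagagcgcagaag
Il6ra: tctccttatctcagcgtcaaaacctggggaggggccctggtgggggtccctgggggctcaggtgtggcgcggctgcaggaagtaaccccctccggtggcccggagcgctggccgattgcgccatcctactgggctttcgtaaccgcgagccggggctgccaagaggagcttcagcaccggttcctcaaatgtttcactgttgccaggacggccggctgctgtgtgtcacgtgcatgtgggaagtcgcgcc
Il21r: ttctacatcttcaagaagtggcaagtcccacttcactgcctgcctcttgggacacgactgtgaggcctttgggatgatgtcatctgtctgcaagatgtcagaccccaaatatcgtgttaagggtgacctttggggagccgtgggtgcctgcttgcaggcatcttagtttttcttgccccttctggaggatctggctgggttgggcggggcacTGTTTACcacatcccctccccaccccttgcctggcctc

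*Il2ra* held a kappaB-type match whose first base lay 201 bases before the start. *Il12rb2* held a STAT match at 123 bases before the start, *Il21r* a FOXO match at 38 bases, and *Il6ra* no match to any of the 4 motifs. Among the other receptor genes with a promoter, *Il7r*, also far lower at day 5, held a STAT match at 142 bases before its start. *Il18r1*, which rose with culture, held STAT matches at 219 and 152 bases before the last of its 3 listed starts. All 250 bases before these starts of *Il7r* and *Il18r1* lie inside the genes as annotated in GENCODE M21. *Il4ra*, also higher in the libraries labelled KO after culture, and *Il2rg* held none of the 4 motifs. Among 32851 mouse promoters of the same length, 7.02% held the STAT motif, 6.75% the AP-1 motif, 3.17% the FOXO motif and 4.77% the kappaB-type motif, and none of these windows was assayed for binding here.

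Per kilobase of exon, the scale on which genes were compared with each other, the chains were expressed over more than 3 orders of magnitude. In WT at day 0, *Il2rg* was highest with 1926 CPM per kb, followed by *Il7r* with 214, *Il21r* with 40.3 and *Il2rb* with 23.1. *Il12rb2*, *Il2ra* and *Il12rb1* were lowest, each below 1 CPM per kb, and only the last pair of neighbours in this order overlapped between libraries. At day 5 in WT the common gamma chain was still highest with 1059 CPM per kb, and *Il2ra* had moved to the next place with 341, ahead of *Il12rb2* with 119 and *Il2rb* with 68.0. *Il7r* stood at 5.15 CPM per kb, below *Il4ra* with 6.90, although their libraries overlapped, and *Il6ra* was last at 0.155. The order in the libraries labelled KO differed in few places. At day 0 *Il2rb* with 49.2 CPM per kb stood above *Il21r* with 44.6, and *Il2ra* with 0.967 above *Il12rb2* with 0.634. At day 5 *Il2rb* with 119 stood above *Il12rb2* with 117, and *Il21r* with 31.4 above *Il18r1* with 26.2. Each of these pairs overlapped between libraries.

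**Figure D1:**
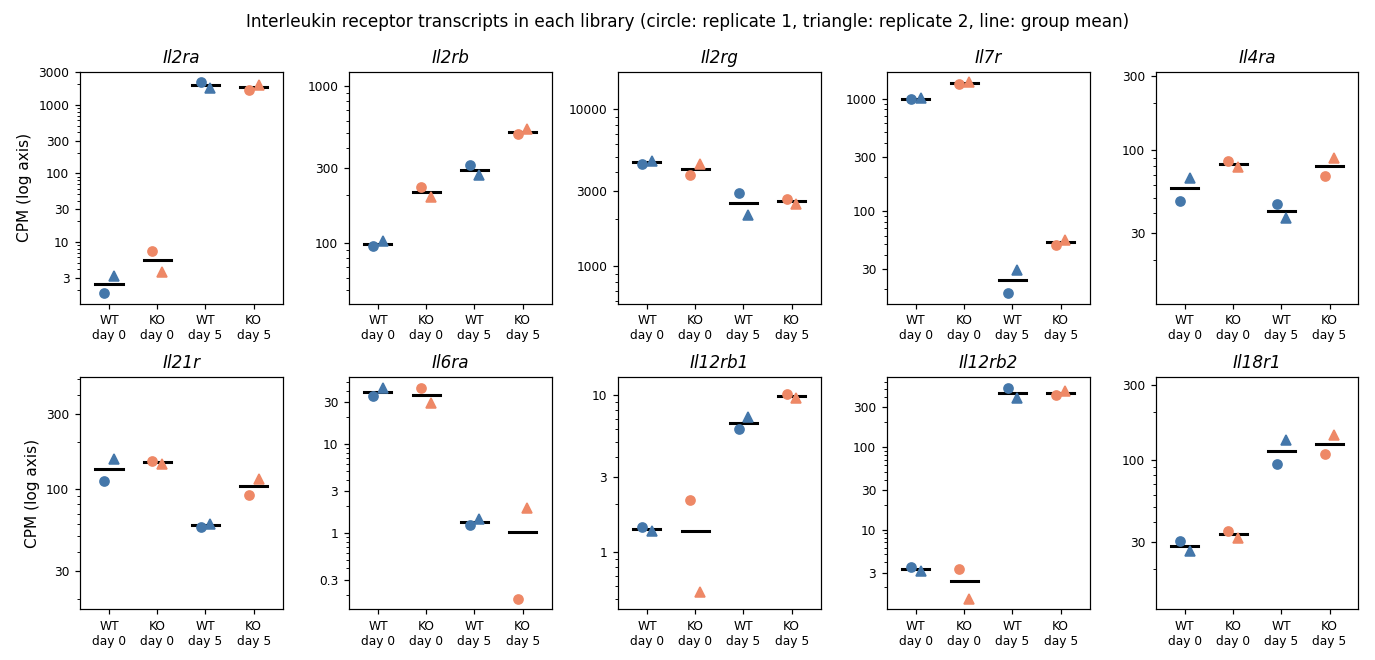
CPM of each of the 10 receptor genes in each of the 8 libraries, on a log axis with its own range per gene. Circles are replicate 1, triangles replicate 2 and lines the mean of the 2 libraries of a group, WT in blue and KO in orange. *Il2ra* and *Il12rb2* lie far higher at day 5, *Il7r* and *Il6ra* far lower, and *Il2rb* is higher in the libraries labelled KO on both days.

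Between day 0 and day 5, 9 of the 10 receptor genes changed in WT, and the same 9 changed in the libraries labelled KO, where 48.3% and 50.2% of the 12597 genes tested were called at an adjusted p under 0.05. In both genotypes 5 rose (*Il2ra*, *Il2rb*, *Il12rb1*, *Il12rb2* and *Il18r1*) and 4 fell (*Il2rg*, *Il7r*, *Il21r* and *Il6ra*), while *Il4ra* did not pass the test. For all genes, the shares called higher were 24.7% in WT and 26.2% in KO, and the shares called lower 23.6% and 24%. The libraries of the 2 days did not overlap for 10 receptor genes in WT and 9 in KO, against 73.7% and 77.9% of all genes tested. The median log2 fold change of the 10 genes was 0.55 in WT and 0.61 in KO, against -0.04 and -0.05 for all genes. In bulk RNA, a change in the number of cells that carry a transcript and a change in its level per cell cannot be told apart.

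The largest rise was that of *Il2ra* (chr2:11642807-11693193, GRCm38), the alpha chain that makes the IL-2 receptor a high-affinity one. It read 1.79 and 3.17 CPM in WT at day 0, from 10 and 14 counts, and 2131 and 1758 CPM at day 5. In KO it read 7.38 and 3.67 CPM at day 0, from 86 and 20 counts, and 1626 and 1981 CPM at day 5. No library of day 0 came near those of day 5 in either genotype. The log2 fold change was 9.65 ± 0.31 (SE) in WT, or 801-fold, and 8.24 ± 0.27 in KO, or 302-fold (adjusted p = 1.67e-10 and 1.78e-10, edgeR). Without KO replicate 1 of day 0 the change in KO was 8.94 on the log2 scale, and the size of the fold rests on the few counts at day 0.

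*Il2rb* (chr15:78479256-78495271), the signalling chain shared by the receptors for IL-2 and IL-15, rose by a much smaller factor. It read 94.8 and 103 CPM in WT at day 0 and 314 and 269 CPM at day 5, a log2 fold change of 1.56 ± 0.14 (adjusted p = 1.38e-06, edgeR). The libraries labelled KO went from 228 and 194 CPM to 491 and 528 CPM, a change of 1.27 ± 0.13 (adjusted p = 5.96e-06, edgeR). In this order WT day 0, KO day 0, WT day 5 and KO day 5, no library overlapped one of another group.

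*Il2rg* (chrX:101264378-101268255), the common gamma chain, moved the other way. It read 4512 and 4682 CPM in WT at day 0 and 2917 and 2138 CPM at day 5, and it fell by 0.86 ± 0.14 on the log2 scale (adjusted p = 0.000272, edgeR). The libraries labelled KO went from 3845 and 4508 to 2698 and 2486 CPM, where the gene fell by 0.69 ± 0.14 (adjusted p = 0.00131, edgeR). It shares 30.5% of its exon length with the gene model *Gm20489* on the same strand, so reads there could have been assigned to neither.

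The 3 chains of the IL-2 receptor thus stood in different proportions on the 2 days. Of their summed CPM per kb, *Il2ra* made up 0.0164% to 0.0776% in the 4 libraries of day 0 and 18.6% to 24.3% in the 4 libraries of day 5. The level of *Il2rg* per kb was 85.5 and 81.7 times that of *Il2rb* in the WT libraries of day 0 and 30.3 and 41.7 times in those labelled KO. At day 5 the ratio was 16.7 and 14.3 in WT and 9.87 and 8.46 in KO. It was lower in both libraries labelled KO than in both labelled WT on each day. For single genes, the genotypes did not overlap for 43.4% of all genes tested at day 0 and 45.6% at day 5. Between the genotypes *Il2rg* itself had log2 fold changes of -0.14 at day 0 and 0.04 at day 5, neither of them called.

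**Figure D2:**
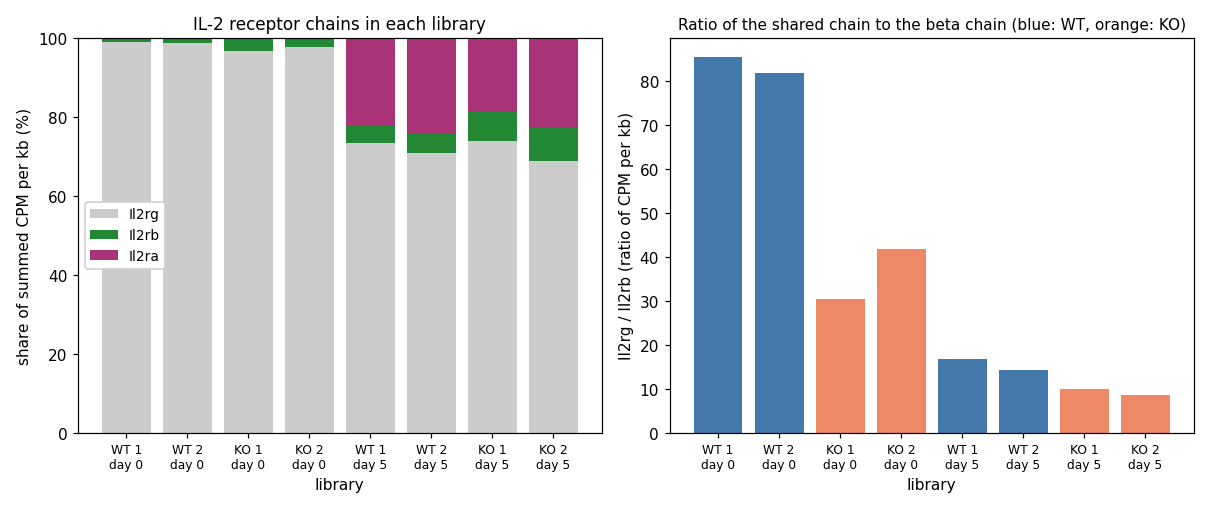
Share of each IL-2 receptor chain in the summed CPM per kb of the 3 chains (left, percent), and the ratio of *Il2rg* to *Il2rb* per kb (right), for each of the 8 libraries. *Il2ra* is nearly absent from the bars of day 0 and takes 18.6% to 24.3% at day 5, and the ratio falls from 81.7 or more in WT at day 0 to 9.87 or less in KO at day 5.

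Of the chains that pair with the common gamma chain, *Il7r* (chr15:9505788-9530176), the alpha chain of the IL-7 receptor, showed the largest fall. It read 986 and 1006 CPM in WT at day 0 and 18.3 and 29.6 CPM at day 5, a fall of 42.1-fold (adjusted p = 4.59e-10, edgeR). Those labelled KO read 1356 and 1394 CPM at day 0 and 49.5 and 55.1 CPM at day 5, a fall of 26.3-fold (adjusted p = 6.11e-10, edgeR). On both days the libraries labelled KO lay above those labelled WT, a difference called at day 5 (adjusted p = 0.00909, edgeR) but not at day 0 (adjusted p = 0.191, edgeR). The genotypes did not overlap for 43.4% of all genes tested at day 0 and 45.6% at day 5.

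*Il21r* (chr7:125603429-125633570), the IL-21 receptor, fell by 1.19 ± 0.18 on the log2 scale in WT, from 113 and 155 to 57.5 and 60.0 CPM (adjusted p = 0.000128, edgeR). In the libraries labelled KO it fell by 0.51 ± 0.17, from 152 and 144 to 92.0 and 117 CPM (adjusted p = 0.0244, edgeR). The call in KO was lost without KO replicate 1 of day 0 (adjusted p = 0.0989, edgeR) and without KO replicate 1 of day 5 (adjusted p = 0.248, edgeR). *Il4ra* (chr7:125552120-125579474), a chain of the receptors for IL-4 and IL-13, lies 23954 bases from *Il21r* on the same strand. It read 47.8 and 67.2 CPM in WT at day 0 and 45.7 and 37.1 CPM at day 5, a log2 fold change of -0.46 ± 0.21 (adjusted p = 0.0809, edgeR). This value passed the test without WT replicate 1 of day 0 (adjusted p = 0.0379, edgeR) and with scaling by library totals alone (adjusted p = 0.0247, edgeR). The gene read 86.2 and 78.0 CPM at day 0 and 68.4 and 89.9 CPM at day 5 in the libraries labelled KO, so the days overlapped, with a 95% interval of the log2 fold change from -0.48 to 0.37.

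*Il6ra* (chr3:89864059-89913196), the ligand-binding chain of the IL-6 receptor, was nearly lost from the libraries of day 5. It read 34.9 and 42.7 CPM in WT and 43.1 and 28.8 CPM in KO at day 0. At day 5 it read 1.23 and 1.45 CPM in WT, from 7 and 6 counts, and 0.184 and 1.89 CPM in KO, from 1 and 10 counts. The log2 fold change was -4.85 ± 0.46 in WT (adjusted p = 2.66e-06, edgeR) and -5.11 ± 0.46 in KO (adjusted p = 1.69e-06, edgeR). In KO it ranged with the library left out, from -4.23 without KO replicate 1 of day 5 to -7.46 without KO replicate 2 of day 5, and was called in both.

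The chains for IL-12 and IL-18, cytokines that promote interferon production by T cells, all rose. *Il12rb2* (chr6:67291318-67376188), the signalling chain of the IL-12 receptor, read 3.58 and 3.17 CPM in WT at day 0 and 519.6 and 387 CPM at day 5, a rise of 133-fold (adjusted p = 7.07e-10, edgeR). In the libraries labelled KO it read 3.35 and 1.47 CPM at day 0 and 418 and 468 CPM at day 5, a 164-fold rise (adjusted p = 3.21e-10, edgeR). Without KO replicate 1 of day 0, which leaves 8 counts in that group, the log2 fold change in KO went from 7.36 to 8.22. Of its exon length, 40% lies within exons of *Serbp1* on the other strand, and the strand setting of the counting is not given in the sources used here, so reads there cannot be assigned to either gene with certainty.

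*Il12rb1* (chr8:70808449-70821424), the chain shared by the receptors for IL-12 and IL-23, was much lower than its partner at day 5. It read 1.43 and 1.36 CPM in WT at day 0, from 8 and 6 counts, and 6.00 and 7.23 CPM at day 5, a log2 fold change of 2.22 ± 0.52 (adjusted p = 0.00357, edgeR). In KO it read 2.14 and 0.551 CPM at day 0, the latter from 3 counts, and 10.1 and 9.47 CPM at day 5, a log2 fold change of 2.67 ± 0.46 (adjusted p = 0.000373, edgeR). Without KO replicate 1 of day 0 the change in KO was 4.10 on the log2 scale. *Il18r1* (chr1:40465552-40500854), the ligand-binding chain of the IL-18 receptor, read 30.4 and 26.2 CPM in WT at day 0 and 94.4 and 134 CPM at day 5, a rise of 4.01-fold (adjusted p = 6.34e-06, edgeR). In the libraries labelled KO it read 35.2 and 31.7 CPM at day 0 and 109 and 143 CPM at day 5, a rise of 3.76-fold (adjusted p = 6.18e-06, edgeR).

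**Figure D3:**
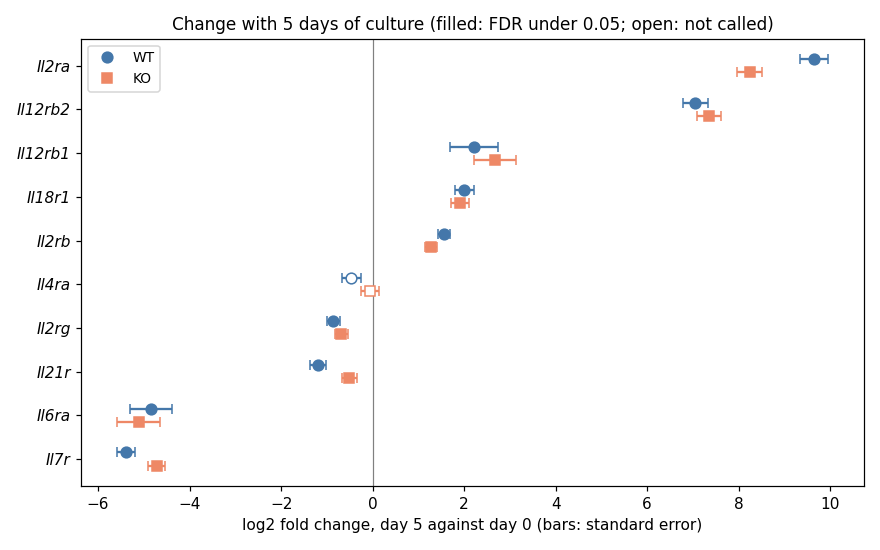
Log2 fold change of day 5 against day 0 for the 10 receptor genes in WT (blue) and KO (orange), with bars for the standard error of the fit to 8 libraries. *Il2ra* (9.65 and 8.24) and *Il12rb2* (7.05 and 7.36) lie highest in both genotypes, *Il7r* (-5.39 and -4.72) and *Il6ra* (-4.85 and -5.11) lowest, and *Il4ra* nearest to 0.

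At day 0, 1 of the 10 receptor genes, *Il2rb*, was called between KO and WT, where 1.8% of all genes tested were called, 0.913% higher and 0.889% lower. Its values of 228 and 194 CPM in the libraries labelled KO lay above the 94.8 and 103 CPM of WT, a log2 fold change of 1.10 ± 0.14, or 2.14-fold (adjusted p = 0.00116, edgeR). The call was lost without WT replicate 1 of day 0 (adjusted p = 0.0589, edgeR), with a log2 fold change of 1.04. Of the 10 genes, 6 did not overlap between the genotypes, against 43.4% of all genes tested, and 4 had an unadjusted p under 0.05, against 13.8%. The median log2 fold change of the 10 was 0.19, against -0.0017 for all genes.

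The other 3 receptor genes with an unadjusted p under 0.05 at day 0 were *Il2ra*, *Il7r* and *Il4ra*, all with higher values in the libraries labelled KO. *Il2ra*, at 2.46 times the WT level in the fit (adjusted p = 0.133, edgeR), had a log2 fold change of 0.60 without KO replicate 1 of day 0 (adjusted p = 0.651) and was called at 1.64 without KO replicate 2 of day 0 (adjusted p = 0.0244). *Il7r* had a log2 fold change of 0.47 ± 0.15 (adjusted p = 0.191, edgeR) and passed the test without WT replicate 1 of day 5 (adjusted p = 0.0230) and without WT replicate 2 of day 5 (adjusted p = 0.0171). *Il4ra* had 0.52 ± 0.20 (adjusted p = 0.253, edgeR). For the remaining 6 genes the log2 fold change lay between -0.34 and 0.24. The 95% interval for the common gamma chain was -0.44 to 0.16, while those of *Il12rb1* (-1.12 to 1.36) and *Il12rb2* (-1.16 to 0.48) were wide, since their counts at day 0 were low.

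At day 5, 4 of the 10 receptor genes were called higher in the libraries labelled KO and none lower, where 1.63% of all genes tested were called, 1.31% higher and 0.318% lower. These were *Il7r*, *Il4ra*, *Il21r* and *Il2rb*, whose products all pair with the common gamma chain. *Il7r* was higher by 2.21-fold (log2 fold change 1.14 ± 0.18, adjusted p = 0.00909, edgeR), with 49.5 and 55.1 CPM against 18.3 and 29.6 CPM. *Il4ra* was higher by 1.90-fold (0.93 ± 0.20, adjusted p = 0.0401, edgeR), with 68.4 and 89.9 CPM against 45.7 and 37.1 CPM. The libraries of the 2 genotypes did not overlap for any of the 4 genes.

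*Il21r* was higher at day 5 by 1.78-fold (log2 fold change 0.83 ± 0.18, adjusted p = 0.0349, edgeR), with 92.0 and 117 CPM against 57.5 and 60.0 CPM. *Il2rb* was higher by 1.75-fold (0.81 ± 0.13, adjusted p = 0.00989, edgeR), with 491 and 528 CPM against 314 and 269 CPM. These differences were smaller than the fall of *Il7r* or the rise of *Il2ra* with culture. Beside these 4 genes, *Il12rb1* also did not overlap between the genotypes (6.00 and 7.23 CPM in WT, 10.1 and 9.47 CPM in KO), at a log2 fold change of 0.57 ± 0.41 (adjusted p = 0.599, edgeR). That made 5 genes without overlap, against 45.6% of all genes tested. The median log2 fold change of the 10 was 0.36, against 0 for all genes.

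The 4 calls at day 5 rested on few libraries, and each estimate kept its sign when a library was left out. All 4 were lost without KO replicate 2 of day 5, with adjusted p-values of 0.0989 for *Il7r*, 0.156 for *Il2rb*, 0.416 for *Il21r* and 0.438 for *Il4ra* (edgeR). *Il7r* alone was called without KO replicate 1 of day 5, where *Il2rb* had an adjusted p of 0.0642, *Il21r* of 0.0729 and *Il4ra* of 0.0788 (edgeR). It was also alone without WT replicate 2 of day 5, where those genes had adjusted p-values of 0.0586, 0.114 and 0.182 (edgeR). *Il21r* and *Il4ra* were lost without WT replicate 1 of day 5 (adjusted p = 0.112 and 0.0661, edgeR). *Il4ra* was lost without WT replicate 1 or WT replicate 2 of day 0 (adjusted p = 0.0533 and 0.0541, edgeR), with a log2 fold change of 0.92 in both against 0.93 with all libraries. Without KO replicate 1 of day 5 the estimates were larger than with all libraries for the genes that lost their call, at 0.86 for *Il2rb*, 0.99 for *Il21r* and 1.11 for *Il4ra*, and without KO replicate 2 of day 5 they were smaller, from 0.65 for *Il21r* to 1.06 for *Il7r*. In a fit to the libraries of day 5 only, *Il7r*, *Il4ra* and *Il21r* were lost at log2 fold changes of 1.12, 0.91 and 0.81 (adjusted p = 0.0543, 0.0503 and 0.0503, edgeR), and with the offset for exon length and GC content *Il4ra* and *Il21r* were lost at 0.71 and 0.69 (adjusted p = 0.123 and 0.0875, edgeR).

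Of the 5 remaining genes, 4 gave estimates near 0 at day 5. For *Il2ra* the log2 fold change was -0.11, with a 95% interval of -0.51 to 0.29. That of *Il12rb2* was -0.03 (-0.42 to 0.35), of *Il2rg* 0.04 (-0.27 to 0.34) and of *Il18r1* 0.15 (-0.27 to 0.56). For *Il6ra*, with at most 10 counts per library at day 5, the log2 fold change was -0.36 and its interval was -1.97 to 1.25, and no difference was detectable at this depth.

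**Figure D4:**
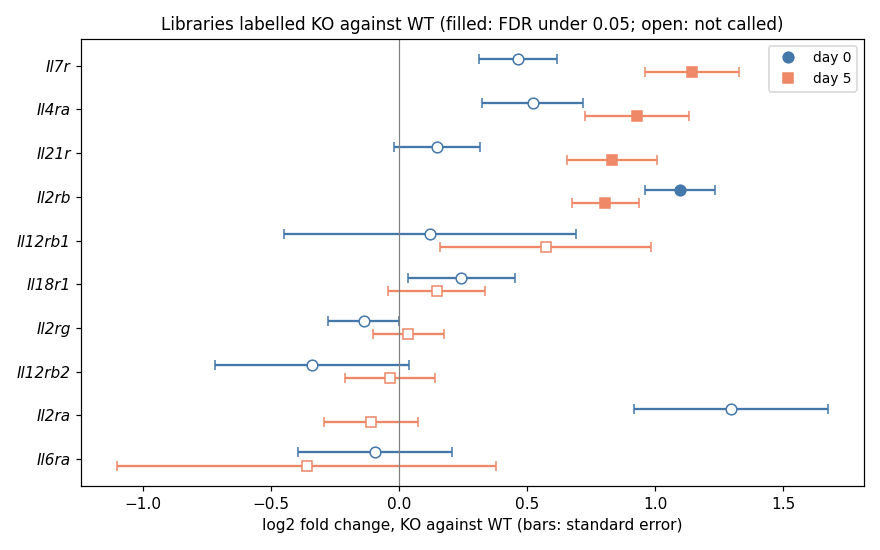
Log2 fold change of the libraries labelled KO against those labelled WT for the 10 receptor genes at day 0 and day 5, with bars for the standard error of the fit. *Il2rb* lies above 0 on both days (1.10 and 0.81), and *Il7r*, *Il4ra* and *Il21r* were called at day 5 only, a difference between the days that did not pass its own test.

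Whether the genotype difference changed between the days was asked with the interaction term, which subtracts the genotype difference of day 0 from that of day 5 on the log2 scale. None of the 10 receptor genes was called by edgeR or by DESeq2, where edgeR called 0.159% of all genes tested, 0.0794% higher and 0.0794% lower, and 3 had an unadjusted p under 0.05, against 12.4% of all genes. These were *Il2ra* with -1.40 ± 0.42 (adjusted p = 0.218, edgeR), *Il7r* with 0.68 ± 0.24 (adjusted p = 0.286, edgeR) and *Il21r* with 0.68 ± 0.24 (adjusted p = 0.293, edgeR). With no filter on low counts, *Il2ra* was called at -1.44 (adjusted p = 0.000557, edgeR), and without KO replicate 1 of day 0 its interaction was -0.71 (adjusted p = 0.587, edgeR). For *Il2rb* the interaction was -0.29 ± 0.19, with a 95% interval of -0.70 to 0.11, and for *Il4ra* it was 0.41, with an interval of -0.21 to 1.02.

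Among the 10 genes, likeness was measured as the root mean square difference of centred log2 CPM over the 8 libraries, where 0 is the same pattern. The values were not scaled by the size of a gene's changes, so genes that change little lie close to each other. *Il4ra* and *Il21r* were the most alike with 0.33, followed by *Il2rg* and *Il21r* with 0.36 and by *Il12rb1* and *Il18r1* with 0.48. *Il2ra* and *Il12rb2*, both far higher at day 5, differed by 1.05, and *Il7r* and *Il6ra*, both far lower, by 0.86.

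Of 8 chains that pair with these receptors, 4 passed the filter. None was called by genotype on either day, where 1.8% of all genes were called at day 0 and 1.63% at day 5. On each day 1 of the 4 had an unadjusted p under 0.05 (edgeR), against 13.8% and 14.1% of all genes. With culture, *Il18rap*, the signalling partner of *Il18r1*, rose by 3.94 on the log2 scale in WT and by 3.49 in KO. *Il6st*, which encodes gp130, the signalling partner of *Il6ra*, fell by 3.21 in WT and 3.29 in KO, from 189 to 20.3 CPM in WT. *Il27ra*, which pairs with gp130 in the IL-27 receptor, fell by 2.33 in WT and 1.79 in KO. *Il15ra*, the alpha chain for IL-15, rose by 1.01 in WT, from 6.07 to 12.2 CPM. All of these passed edgeR's test, which made 4 of 4 called in WT and 3 of 4 in KO, against 48.3% and 50.2% of all genes.

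Of 26 further interleukin receptor genes, 8 passed the filter, and *Il10ra*, the ligand-binding chain of the IL-10 receptor, was the only one called by genotype, where 1.8% of all genes were called at day 0 and 1.63% at day 5. Its mean was 12.7 CPM in WT and 54.5 CPM in KO at day 0 (log2 fold change 2.15, adjusted p = 0.00560, edgeR) and 37.9 and 101 CPM at day 5 (1.42, adjusted p = 0.0339, edgeR). With culture 5 of the 8 were called in WT, 2 higher and 3 lower, and 4 in KO, 2 higher and 2 lower, which is near the 48.3% and 50.2% of all genes. *Il10ra* rose by 1.61 on the log2 scale in WT and 0.88 in KO, and *Il1rap*, the accessory chain of the IL-1 receptor family, rose by 0.80 in WT and had a log2 fold change of -0.37 in KO, from 20.4 to 15.8 CPM, which was not called. *Il1rl2*, which encodes a receptor of the IL-36 cytokines, fell by 2.93 in WT and 2.70 in KO, and *Il17ra*, a chain of the IL-17 receptor, fell by 1.24 and 0.80. Of 15 ligand genes only *Il2* and *Ebi3* passed the filter. *Il2* was called by genotype at day 0, where 1.8% of all genes were, with 1 and 2 counts in WT against 68 and 50 counts in KO. With culture *Il2* was called higher in WT, from 0.316 to 1.60 CPM, where 48.3% of all genes were called. In KO it went the other way, from 7.50 to 3.83 CPM, and was not called. *Ebi3*, a subunit of IL-27, was called higher at day 5 in both genotypes, at 6.43 CPM in WT and 12.3 CPM in KO.

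The 15 genes listed for JAK kinases, STAT factors and adaptors were all tested. None was called by genotype at day 0 by edgeR, where 1.8% of all genes were, with 1 of 15 at an unadjusted p under 0.05, against 13.8% of all genes. At day 5, where 1.63% of all genes were called, 4 of 15 had an unadjusted p under 0.05, against 14.1%, and *Stat2* was called, higher in the libraries labelled KO by 0.95 on the log2 scale (adjusted p = 0.0172, edgeR). With culture 10 of 15 were called in WT, where 48.3% of all genes were, of which *Stat4*, which acts below the IL-12 receptor, rose by 0.50 and 9 fell, and 6 of 15 were called in KO, all lower, where 50.2% of all genes were called. *Jak1*, the kinase bound by many of these chains, went from 761 to 305 CPM in WT and from 739.9 to 261 CPM in KO, a fall in both. *Stat5a*, a factor used by the IL-2 and IL-7 receptors, fell by 1.32 and 0.92. *Stat6*, which acts below the IL-4 receptor, fell by 0.97 and 0.72, and *Irak4*, a kinase below the IL-18 receptor, fell by 0.71 and 0.84.

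Of 12 genes listed as feedback inhibitors or targets of these receptors, 11 were tested. With culture 9 were called in WT (6 higher and 3 lower) and 8 in KO (5 higher and 3 lower), against 48.3% and 50.2% of all genes. *Cish*, an inhibitor induced by STAT5, rose by 3.55 on the log2 scale in WT and by 4.21 in KO. *Socs2*, another inhibitor of this kind, rose from 0.292 to 34.2 CPM in WT and from 0.642 to 28.3 CPM in KO. Its levels at day 0 came from 2 and 1 counts in WT, under the floor of 3 counts, and from 0 and 7 counts in KO. The kinase genes *Pim1* and *Pim2*, both induced by cytokines, rose by 2.63 and 2.27 in WT and by 2.44 and 2.46 in KO. *Bcl2*, a survival factor, rose by 1.67 in WT, from 407 to 1293 CPM, and by 2.12 in KO, from 263 to 1142 CPM, while *Mcl1*, a survival factor of the same family, fell by 1.69 in WT and 1.83 in KO. *Ccnd2*, a G1 cyclin, fell by 0.94 and 0.48. By genotype, *Pim2* was called at day 0, lower in the libraries labelled KO by 0.76 on the log2 scale with 14.7 against 24.7 CPM (adjusted p = 0.0405, edgeR), where 1.8% of all genes were called, and none was called at day 5, with 3 of 11 at an unadjusted p under 0.05, against 14.1% of all genes.

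Markers of other T-cell types moved beside these differences. Of 10 markers listed for regulatory or CD4 T cells, 9 were tested and 5 were called at day 0, where 1.8% of all genes were: *Foxp3* (9.76 CPM in WT, 54.8 in KO), *Ctla4* (2.97 and 31.0) and *Ikzf2* (15.6 and 71.8) were higher, and *Gpr83* (107 and 25.5) and *Capg* (32.2 and 12.8) were lower. *Cd4* had at most 7 counts in any library, and *Foxp3* was also higher at day 5 in libraries labelled KO (16.7 and 56.8 CPM, called). The list summed to 191 to 193 CPM in WT and 219 to 225 CPM in KO at day 0. At day 5 it summed to 4254 to 4737 and 4406 to 4843 CPM, mostly from the activation markers *Tnfrsf9* and *Capg*. Of 10 markers of NK and gamma delta T cells, 5 were tested, and the T-cell receptor gamma constant genes *Tcrg-C1*, *Tcrg-C2* and *Tcrg-C4* were called at day 0, higher in libraries labelled KO, as were *Tcrg-C2* and *Tcrg-C4* at day 5, where 0.913% and 1.31% of all genes were called higher on these days. *Trdc*, the delta constant gene, read 67.6 CPM in WT and 79.1 CPM in KO at day 0 and 36.3 and 25.4 CPM at day 5, and *Tcrg-C1* read 93.2 and 92.9 CPM at day 5, neither of them called by genotype on that day. Reads of the near-identical gamma constant genes are uncertain. The list summed to 65.5 to 95.9 CPM in WT and 160 to 164 CPM in KO at day 0, and to 336 to 358 and 528 to 626 CPM at day 5, with *Ncr1* at no more than 4 counts. At day 0 both sums were higher in both libraries labelled KO, as *Il2rb* was. At day 5 the second sum was higher beside *Il2rb*, *Il7r*, *Il4ra* and *Il21r*. The genotypes did not overlap for 43.4% of all genes tested at day 0 and 45.6% at day 5. The sum of 8 B-cell markers was also higher in KO, at 144 to 169 against 125 to 127 CPM at day 0. At day 5 it was 81.3 to 85.4 against 67.6 to 69.2 CPM. The sum of 5 CD8 T-cell markers was lower in KO at day 0 (9521 to 9629 against 9809 to 10683 CPM). It was higher at day 5 (6858 to 6871 against 6160 to 6411 CPM). The part of these markers in the receptor differences was not tested. *Cd79b*, which marks B cells, read 118 to 122 CPM in WT and 141 to 164 CPM in KO at day 0, and 66.7 to 68.7 and 79.5 to 83.3 CPM at day 5. The myeloid list summed to 109 to 133 CPM in WT and 91.5 to 107 CPM in KO at day 0. At day 5 it summed to 173 to 174 CPM in WT and 204 to 228 CPM in KO. Nearly all of it came from *Cst3*, which was called higher at day 5 in both genotypes (106 to 169 CPM in WT, 86.5 to 209 CPM in KO). Of the other 2 tested genes of that list, *Csf1r* was called lower in both genotypes and *Itgam* in WT, and the remaining 6 had at most 15 counts in any library.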

How the data were processed

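RNA was measured by sequencing in 8 libraries. Per the labels, total RNA from sorted splenic CD8+ T cells was extracted with Trizol and made into libraries with an NEBNext Ultra kit. The submitters' processing notes name HISAT2 2.1.0, HTSeq 0.11.1 and the builds mm10 and GRCm38, and the annotation and strand setting are not given in the sources used here. The authors deposited 1 table of raw read counts per library, by gene symbol, not normalized and not pooled. The lines of the counting program that name no gene were left out of library sizes. Of all records, 21.2% to 24.5% were assigned to genes, 27.5% to 33.7% fell outside features and 31.8% to 37.4% were not unique.

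Counts were tested in edgeR 4.0.16 (R 4.3.3) with a quasi-likelihood fit to all 8 libraries, a mean per group, TMM factors and the default filter (minimum count 10), which left 12597 of the 34404 genes with a count. The common biological coefficient of variation was 15.0%. P-values were two-sided and Benjamini-Hochberg adjusted over the 12597 genes, and an adjusted p under 0.05 was called. CPM used the TMM-scaled library size and exon lengths came from GENCODE M21 (GRCm38), to which 46394 of 48321 symbols matched. Error bars and the ± of log2 fold changes are standard errors from the fit. A floor of 3 counts allows for counting error alone, as the reads carried no molecular identifiers.

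The receptor genes and the gene lists were chosen with earlier results of these data known, so no test over a list is given. All receptor genes and *Satb1* are reported. Of the other lists, the genes named for a comparison were called genes that reached 10 CPM in either group, at most 3 per direction, and for each marker list those of at least 10 CPM, at most 4 by level, and the defining markers. *Il2*, *Ebi3* in WT, *Ikzf2*, *Gpr83*, *Bcl2*, *Csf1r* and *Itgam* and the pairs of receptor genes *Il2ra* and *Il12rb2* and *Il7r* and *Il6ra* in the account of likeness were named with their values in view. Alternative settings were DESeq2 size factors, library totals alone, no filter, a filter of 5 CPM in 2 libraries, a fit restricted to the compared libraries, a replicate block, the edgeR 4 quasi-likelihood form, the edgeR exact test, DESeq2 1.42.0, a loess offset (span 0.3) for exon length and GC content, which 96.9% of the tested genes had, thinning to 4170126 counts, and leaving out each library in turn. With a library left out, the lone library of its group was assumed to vary like the others. The scripts were tested on simulated data. Replicate libraries differed beyond sampling noise in all 4 groups.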

Additional observations from a re-analysis of the deposited data

Results flagged for a closer look

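*Satb1*, the gene targeted in these mice, drew attention because its genotype difference was not the same on the 2 days. The libraries labelled KO were above those labelled WT at day 0 (144 and 125 against 97.8 and 91.6 CPM) and below them at day 5 (56.5 and 62.3 against 96.5 and 116 CPM), an interaction of -1.34 ± 0.21 on the log2 scale (adjusted p = 0.0269, edgeR). Over 17 alternatives the adjusted p ranged from 3.77e-05 to 0.230, and 9 of them kept the call. The interaction was not called with the offset for exon length and GC content (adjusted p = 0.0799), with thinned libraries (0.0538), or without WT replicate 1 (0.156), WT replicate 2 (0.230) or KO replicate 1 (0.0501) of day 0 or WT replicate 2 (0.0556), KO replicate 1 (0.177) or KO replicate 2 (0.123) of day 5. The cause was not tested.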

How the results depend on the processing

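Each comparison was recomputed under 19 alternatives (17 for the interaction). Of 928 values for single receptor genes, 869 kept their direction and their side of the threshold, 22 lost a call, 10 gained one and 27 changed sign, and each change of sign was in a value that was not called. The receptor genes called at day 0, 1 as reported, were 3 with no filter on low counts (*Il2ra*, *Il2rb*, *Il7r*), 2 with only the libraries of the comparison (*Il2rb*, *Il7r*), 2 by the exact test (*Il2ra*, *Il2rb*) and 0 to 2 with a library left out. At day 5, 4 as reported, they were 1 with only the libraries of the comparison (*Il2rb*), where *Il7r* had an adjusted p of 0.0543 (edgeR), 2 with the offset for exon length and GC content (*Il2rb*, *Il7r*) and 0 to 4 with a library left out. The interaction had 1 with no filter (*Il2ra*). The culture counts stayed at 9 to 10 in WT and 8 to 9 in KO. The cause of these shifts was not tested.

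Values that changed sign were, with thinned libraries, *Il12rb1* at day 0 (-0.35) and *Il4ra* with culture in KO (0.067), and, with the GC and length offset, *Il18r1* in the interaction (0.025). With a library left out, log2 fold changes at day 0 ranged from -0.068 to 0.39 for *Il21r*, -0.43 to 0.19 for *Il6ra*, -1.31 to 0.64 for *Il12rb1* and -1.20 to 0.013 for *Il12rb2*. At day 5 they ranged from -0.26 to 0.045 for *Il2ra*, -0.17 to 0.29 for *Il2rg*, -2.72 to 0.51 for *Il6ra*, -0.23 to 0.20 for *Il12rb2* and -0.081 to 0.42 for *Il18r1*. *Il4ra* with culture in KO ranged from -0.25 to 0.14. Interactions ranged from -0.058 to 0.42 for *Il2rg*, -2.63 to 0.60 for *Il6ra*, -0.085 to 1.88 for *Il12rb1*, -0.061 to 1.16 for *Il12rb2* and -0.33 to 0.15 for *Il18r1*.

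Over all genes, the 227 calls at day 0 became 434 with no filter and 449 by the exact test, and ranged from 38 to 276 with a library left out. The 205 at day 5 became 418, 454, 350 with DESeq2 and 136 with the offset, and ranged from 32 to 249. The 20 of the interaction became 154 with no filter, 144 with DESeq2 and 11 with the offset, and ranged from 0 to 41. Library totals alone shifted the median culture change over genes by -0.14 (WT) and -0.18 (KO), and the share of calls that were higher from 51.2% to 42.8% in WT and from 52.1% to 41.2% in KO.

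The replicate numbers were shared by all groups, but nothing in the labels says what they mark. The correlation of their deviations was 0.118 between the WT groups, 0.228 between the KO groups and -0.0742 to 0.00438 otherwise. With the replicate block, 1 receptor gene was called at day 0, 4 at day 5, 9 with culture in each genotype and 0 in the interaction, and over all genes the calls were 216, 215, 5999, 6291 and 29 in that order.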
